A study of Mus musculus with 16 samples.

Results

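The Toll-like receptor (TLR) and NF-kB signalling genes described here are 40 of the 48432 genes in the expression table, chosen by symbol: 12 receptors, 2 co-receptors, 4 adaptors, 8 kinases, ligases and partners below the adaptors, the 3 subunits of the IκB kinase (IKK) complex, the 5 NF-kB subunits and 6 inhibitors. The study asked how LDAH, a hydrolase that sits on lipid droplets, shapes the foam cell, a macrophage filled with lipid. RNA was sequenced from mouse peritoneal macrophages (PM), which were drawn 5 days after 3% thioglycolate, a medium that recruits macrophages to the peritoneum, and then given oxidized LDL (oxLDL) at 50 μg/ml for 48 h. All 16 samples shared this treatment and none was without oxLDL. LDAH-Tg PM (4 samples) came from mice hemizygous for an *Ldah* transgene under the promoter, first intron and enhancer of *Csf1r*, which act in myeloid cells. Tg-control PM (4 samples) came from mice without the transgene, under a genotype label that also names ApoE. LDAH-KO PM (4 samples) came from *Ldah*-/- mice, in which a cassette takes the place of the first coding exons. KO-control PM (4 samples) came from WT mice of that line. All groups bear the strain label C57BL/6J, the founders of the transgenic line were B6D2F1 before their crosses to C57BL/6, and ages are not given in the sources used here. Whether the mice that gave RNA lacked *Apoe* was not found in the text, and *Apoe* transcripts averaged 7947 TPM in LDAH-Tg PM, 8775 TPM in Tg-control PM, 10404 TPM in LDAH-KO PM and 9565 TPM in KO-control PM.

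Every value below is the authors' mean over the 4 samples of a group, in transcripts per 1000000 (TPM), a level already divided by transcript length. No sample's own value was at hand, so levels come without an SD, differences without a test or a check across replicates, and the depth cannot be known. Differences are given as the log2 ratio of 2 group means after adding 0.5 TPM to each, which understates the difference of genes with low levels. A comparison took genes that averaged at least 1 TPM across the pair of groups, leaving out any listed at 0 in either, and a gene was counted as higher or lower when the ratio passed a factor of 1.5, which is a size and not a test. *Ldah* averaged 124 TPM in LDAH-Tg PM against 28.5 TPM in Tg-control PM, a log2 ratio of 2.10, and 27.9 TPM in LDAH-KO PM and 44.5 TPM in KO-control PM, a log2 ratio of -0.67. The macrophage label was borne out by its markers: all 6 (*Csf1r*, *Adgre1*, *Itgam*, *Cd68*, *Mertk* and *Fcgr1*) were well above 1 TPM, with sums of 5204 TPM in LDAH-Tg PM, 5320 TPM in Tg-control PM, 3550 TPM in LDAH-KO PM and 3927 TPM in KO-control PM. These sums were carried by *Cd68*. In LDAH-Tg PM 1 marker was higher and 5 were lower (49.5% of all genes), with log2 ratios of -0.55 for *Adgre1* and -0.39 for *Itgam*. In LDAH-KO PM 2 were higher and 4 lower (66.6% of all genes). The part of these levels in the ratios below was not tested. No marker of B cells, of T or NK cells or of dendritic cells reached 1 TPM in any group (highest 0.835, 0.232 and 0.413 TPM). The neutrophil marker *S100a8* lay between 63.8 and 107 TPM, while the other 5 neutrophil markers were listed under 1 TPM, and of the 6 mast cell and eosinophil markers only *Siglecf* passed 1 TPM, at 4.45 TPM or less. A value of 0 in the table may be a failed estimate, since *Ctsb*, a protease gene that macrophages use, is listed at 0 in all 4 groups. Summed fibroblast markers (4 genes) were 18.3 TPM in LDAH-Tg PM against 19.9 TPM in Tg-control PM, but 15.4 TPM in LDAH-KO PM and 29.8 TPM in KO-control PM. Summed mesothelial markers (5 genes) were 6.54 and 6.22 TPM in LDAH-Tg and Tg-control PM, and 3.40 and 5.95 TPM in LDAH-KO and KO-control PM.

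TLRs are sentinels of innate immunity that bind molecules of microbes and, in some cases, of damaged tissue, either at the cell surface or inside endosomes. Bound receptors recruit the adaptors MyD88 or TRIF, and IRAK kinases and the ubiquitin ligase TRAF6 then pass the signal through the kinase TAK1 to the IKK complex. IKK marks the IκB proteins for destruction, which frees NF-kB dimers to enter the nucleus and switch on cytokines, chemokines and also the pathway's own inhibitors. In atherosclerosis, modified lipoproteins such as oxLDL are known to engage TLRs of macrophages. Transcript levels do not report receptor activity or the place of NF-kB in the cell, which depend on protein modification and movement.

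NF-kB binds sites of 10 bases, and several genes of the pathway are known to be its targets. The promoters of 30 of the 40 genes were matched in the RefSeq table (GRCm38.p6, 250 bases before to 50 after a start) and searched on both strands for the NF-kB motif GGG, any 2 bases, TTT and CC. Of these, 6 held a match (20%), against 512 of 27025 genes with a promoter in the table (1.89%). *Ticam2*, *Relb*, *Nfkb1*, *Tab1*, *Cd14*, *Tlr4*, *Ikbkb*, *Tlr7*, *Nfkbiz* and *Ly96* were not matched. The windows of the 6 genes are printed because they are the matches among a receptor (*Tlr3*), a kinase (*Map3k7*), transcription factors (*Nfkb2*, *Rel*) and inhibitors (*Nfkbia*, *Tnfaip3*) of the pathway, each on the strand of its gene with the match in capitals.
Nfkbia, chr12:55492647-55492696, minus strand, 29 bases before the start: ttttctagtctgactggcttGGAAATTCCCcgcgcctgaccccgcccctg
Tnfaip3, chr10:19015393-19015442, minus strand, 12 bases before the start: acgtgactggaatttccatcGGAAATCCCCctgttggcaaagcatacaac
Nfkb2, chr19:46304706-46304755, plus strand, 11 bases before one of its starts: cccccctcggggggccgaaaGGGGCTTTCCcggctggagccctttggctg
Rel, chr11:23771031-23771080, minus strand, 91 bases before the start: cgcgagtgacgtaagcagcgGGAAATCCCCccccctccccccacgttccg
Tlr3, chr8:45410562-45410611, minus strand, 211 bases before the start: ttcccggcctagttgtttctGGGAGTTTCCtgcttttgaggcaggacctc
Map3k7, chr4:31963995-31964044, plus strand, 92 bases before the start: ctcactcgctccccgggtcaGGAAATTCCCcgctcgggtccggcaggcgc
The matches of *Nfkbia* and *Map3k7* have the same 10 bases, GGAAATTCCC, and those of *Tnfaip3* and *Rel* are both GGAAATCCCC. *Nfkb2* held a further match, GGGACTTTCC, beside another start. Distances are counted from RefSeq starts, and the windows of *Tnfaip3*, *Tlr3* and *Nfkb2* lie within these genes as placed by the GENCODE annotation. A match of letters is a description and not a bound site.

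With 0.5 TPM added to each mean, none of the pathway genes compared differed by a factor of 1.5 between either LDAH genotype and its controls. With 0.1 TPM or none added, *Tlr9* alone passed it, as lower in LDAH-KO PM. Of the 11289 genes compared there, 2.4% (0.1 TPM added) and 2.5% (none added) were lower by that factor. In LDAH-Tg PM against Tg-control PM, 36 of the 40 genes could be compared and 0 passed that factor in either direction, where 1.95% of all 11395 genes compared did so (1.26% higher and 0.685% lower). In LDAH-KO PM against KO-control PM, 37 could be compared and 0 passed it, where 2.22% of 11289 genes did (0.39% higher and 1.83% lower). At those background shares, fewer than 1 of the genes would be counted, so the counts of 0 set the pathway apart from other genes in neither comparison. At a smaller size, a log2 ratio past 0.32, 2 genes (*Tlr4* and *Tlr2*) were lower and 0 higher in LDAH-Tg PM (12.6% of all genes passed it, 7.55% higher and 5.07% lower), and 4 (*Tlr9*, *Tlr3*, *Tlr8* and *Rel*) were lower and 0 higher in LDAH-KO PM (11.9% of all genes, 2.0% higher and 9.85% lower). After the centring on length described below, *Tlr3*, *Tlr8* and *Rel* were at -0.30, -0.30 and -0.10 in LDAH-KO PM, all under this size. *Tlr5*, *Tlr11* and *Tlr12* stayed below the minimum level everywhere, and *Tlr9* passed it only in the comparison of LDAH-KO PM. It did so through its KO-control mean (1.39 TPM, against 0.811 TPM in LDAH-KO PM), which favours a lower ratio.

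**Figure D1:**
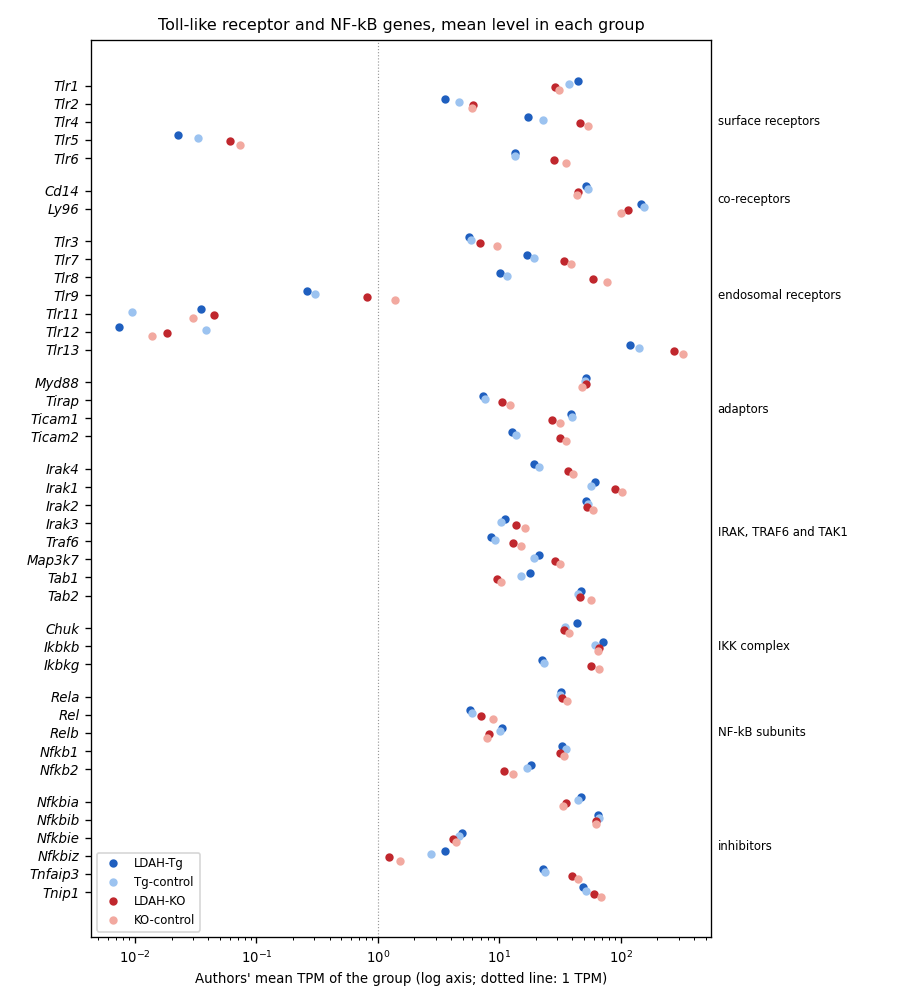
Mean TPM (log axis) of each pathway gene in LDAH-Tg, Tg-control, LDAH-KO and KO-control PM, 1 point per group mean of 4 samples, grouped by role. *Tlr13* is the highest receptor in every group, and for *Tlr8* the means of LDAH-Tg and Tg-control PM (10.05 and 11.6 TPM) stand far below those of LDAH-KO and KO-control PM (59.0 and 76.4 TPM).

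Among the surface receptors, the largest difference of LDAH-Tg PM was a lower level of *Tlr4*, the receptor for bacterial lipopolysaccharide (chromosome 4, 66827584 to 66930284, plus strand, GRCm38). *Tlr4* averaged 17.1 TPM in LDAH-Tg PM against 22.8 TPM in Tg-control PM, a log2 ratio of -0.41, and 45.9 TPM in LDAH-KO PM and 53.5 TPM in KO-control PM, a log2 ratio of -0.22. *Tlr2*, which recognizes bacterial lipoproteins together with TLR1 or TLR6, averaged 3.59 TPM in LDAH-Tg PM against 4.64 TPM in Tg-control PM (log2 ratio -0.33), and 6.07 TPM in LDAH-KO PM and 5.90 TPM in KO-control PM (log2 ratio 0.04). These were the only pathway genes below the 5th percentile of all genes in LDAH-Tg PM, which lay at -0.32, and none was above the 95th percentile, at 0.38. The partners of TLR2 took other paths. *Tlr1* averaged 44.5 TPM in LDAH-Tg PM against 37.3 TPM in Tg-control PM (log2 ratio 0.25), and 28.9 and 30.7 TPM in LDAH-KO and KO-control PM (log2 ratio -0.08). *Tlr6* averaged 13.37 and 13.35 TPM in LDAH-Tg and Tg-control PM, and 28.3 TPM in LDAH-KO PM against 35.3 TPM in KO-control PM (log2 ratio -0.31). *Tlr5*, the receptor for flagellin, was at 0.0733 TPM or less in all 4 groups.

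The co-receptors of TLR4 were among the few pathway genes that, as deposited, were higher in LDAH-KO PM. *Ly96* encodes MD-2, the subunit of the TLR4 complex that holds the lipid part of lipopolysaccharide, and *Cd14* encodes the protein that hands it over. *Ly96* averaged 145.5 TPM in LDAH-Tg PM against 153.8 TPM in Tg-control PM (log2 ratio -0.08), and 113.9 TPM in LDAH-KO PM and 100.3 TPM in KO-control PM (log2 ratio 0.18). *Cd14* averaged 51.7 TPM in LDAH-Tg PM against 54.0 TPM in Tg-control PM (log2 ratio -0.06), and 44.3 TPM in LDAH-KO PM and 43.4 TPM in KO-control PM (log2 ratio 0.03). As deposited, *Ly96*, the shortest transcript of the pathway, had the highest ratio of the 37 genes compared in LDAH-KO PM, where the 95th percentile of all genes was 0.21. After centring on genes of like length *Ly96* was at 0.10, below *Ikbkb* at 0.16, and *Cd14* was on the lower side at -0.05.

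The endosomal receptors, most of which bind nucleic acids taken up by the cell, were lower in both genotypes than in their controls wherever they reached the minimum level: 4 of 4 measured in LDAH-Tg PM (median log2 ratio -0.18) and 5 of 5 in LDAH-KO PM (median -0.37), at sizes that stayed within a factor of 1.5. Over all genes compared, 49.5% were lower by any size in LDAH-Tg PM and 66.6% in LDAH-KO PM. The 5 include *Tlr9*, whose lower side was favoured because only its KO-control mean was above 1 TPM. Without it, *Tlr3*, *Tlr8*, *Tlr13* and *Tlr7* lay at -0.43, -0.37, -0.24 and -0.18 in LDAH-KO PM. After the centring on length described below, these 4 were at -0.30, -0.30, -0.11 and -0.05. *Tlr13*, which in mice recognizes bacterial ribosomal RNA (X chromosome, 106143204 to 106160493, plus strand), was the most abundant of the 12 receptors in every group. It averaged 119.6 TPM in LDAH-Tg PM against 139.9 TPM in Tg-control PM (log2 ratio -0.23), and 276.1 TPM in LDAH-KO PM and 326.1 TPM in KO-control PM (log2 ratio -0.24). *Tlr7* and *Tlr8*, neighbours on the X chromosome, belong to the branch that senses single-stranded RNA. *Tlr7* averaged 17.0 TPM in LDAH-Tg PM against 19.1 TPM in Tg-control PM (log2 ratio -0.16), and 34.2 TPM in LDAH-KO PM and 38.8 TPM in KO-control PM (log2 ratio -0.18). *Tlr8* averaged 10.05 TPM in LDAH-Tg PM against 11.6 TPM in Tg-control PM (log2 ratio -0.20), and 59.0 TPM in LDAH-KO PM and 76.4 TPM in KO-control PM (log2 ratio -0.37). *Tlr3*, the receptor for double-stranded RNA whose promoter window is shown above, was nearly level in LDAH-Tg PM at 5.62 TPM, against 5.79 TPM in Tg-control PM (log2 ratio -0.04), and averaged 6.92 TPM in LDAH-KO PM and 9.47 TPM in KO-control PM (log2 ratio -0.43). *Tlr9*, the receptor for unmethylated DNA, was low throughout, at 0.263 TPM in LDAH-Tg PM, 0.306 TPM in Tg-control PM, 0.811 TPM in LDAH-KO PM and 1.39 TPM in KO-control PM. Its log2 ratio in LDAH-KO PM, -0.53, was the lowest of the pathway, at a level that met the minimum only through KO-control PM. *Tlr3* and *Tlr9* were the only pathway genes below the 5th percentile of all genes in LDAH-KO PM, at -0.40. The summed fibroblast and the summed mesothelial markers given above were lower in the same comparison, and their part in these ratios was not tested. Of the mesothelial markers, *Krt8* was higher, at 0.698 TPM in LDAH-KO PM and 0.535 TPM in KO-control PM. In bulk RNA, fewer cells of a type and less RNA per cell cannot be told apart. The mouse receptors for profilin, *Tlr11* and *Tlr12*, were at 0.0448 TPM or less in all groups.

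**Figure D2:**
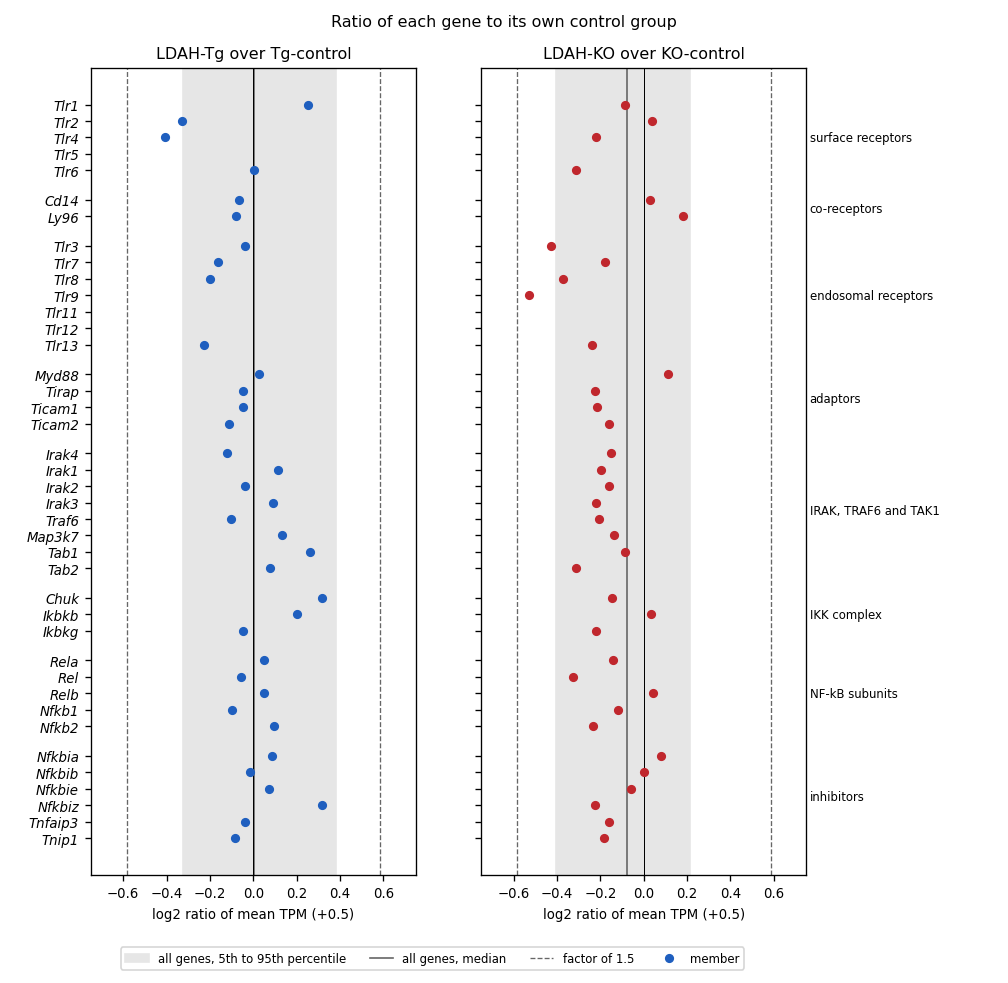
Log2 ratio of mean TPM (0.5 added) of each pathway gene in LDAH-Tg PM over Tg-control PM and LDAH-KO PM over KO-control PM; grey marks the 5th to 95th percentile of all genes, the solid grey line their median and dashed lines a factor of 1.5. All points lie between the dashed lines, and 30 of 37 points of LDAH-KO PM lie below 0, as do 66.6% of all genes. Under the other scalings 28 and 27 lie below 0, where the median of all genes is 0 and 0.003.

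The adaptors differed little. *Myd88*, the adaptor of all TLRs but TLR3, was one of the steadiest genes of the pathway, with 52.0 TPM in LDAH-Tg PM against 51.1 TPM in Tg-control PM (log2 ratio 0.02), and 52.0 TPM in LDAH-KO PM and 48.2 TPM in KO-control PM (log2 ratio 0.11). The other 3 adaptors were lower in both genotypes, as were 33.9% of all genes measured in both comparisons. *Tirap*, which brings MyD88 to the membrane, averaged 7.35 and 7.6 TPM in LDAH-Tg and Tg-control PM (log2 ratio -0.05) and 10.4 and 12.3 TPM in LDAH-KO and KO-control PM (log2 ratio -0.23). *Ticam1*, which encodes TRIF, averaged 38.5 and 39.9 TPM in LDAH-Tg and Tg-control PM (log2 ratio -0.05) and 27.0 and 31.4 TPM in LDAH-KO and KO-control PM (log2 ratio -0.215). *Ticam2*, which encodes the bridge between TLR4 and TRIF, averaged 12.7 and 13.8 TPM in LDAH-Tg and Tg-control PM (log2 ratio -0.11), and 31.7 and 35.4 TPM in LDAH-KO and KO-control PM (log2 ratio -0.16). *Ticam2* overlaps *Tmed7* on the same strand, and *Myd88*, *Irak1*, *Irak2* and *Nfkb1* likewise overlap another annotated gene, so their shares of those reads are uncertain.

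Below the adaptors, the 8 genes of the IRAK, TRAF6 and TAK1 step were mixed in LDAH-Tg PM (5 higher and 3 lower, median log2 ratio 0.08) and all lower in LDAH-KO PM as deposited (median -0.18), where 66.6% of all genes were lower. *Tab1* lay above 0 there under quantile normalization, and *Map3k7* and *Traf6* after centring on length. The highest ratio of this step in LDAH-Tg PM was that of *Tab1*, a TAK1 partner, at 18.0 TPM against 14.9 TPM in Tg-control PM (log2 ratio 0.26), and in LDAH-KO PM it averaged 9.60 TPM, against 10.2 TPM in KO-control PM (log2 ratio -0.09). *Tab2*, which links TAK1 to ubiquitin chains, averaged 46.9 TPM in LDAH-Tg PM against 44.4 TPM in Tg-control PM (log2 ratio 0.08), and had the lowest ratio of the step in LDAH-KO PM, at 45.8 TPM against 57.0 TPM in KO-control PM (log2 ratio -0.31). *Map3k7*, which encodes TAK1 itself, averaged 21.4 TPM in LDAH-Tg PM against 19.5 TPM in Tg-control PM (log2 ratio 0.13), and 28.5 TPM in LDAH-KO PM and 31.4 TPM in KO-control PM (log2 ratio -0.14). These TAK1 genes were on the higher side in LDAH-Tg PM and, as deposited, on the lower side in LDAH-KO PM, as were 32.3% of all genes. Among the IRAK kinases, *Irak1* averaged 61.7 and 57.0 TPM in LDAH-Tg and Tg-control PM (log2 ratio 0.11), and 89.1 and 102.3 TPM in LDAH-KO and KO-control PM (log2 ratio -0.20). *Irak4*, which activates IRAK1, averaged 19.3 and 21.0 TPM in LDAH-Tg and Tg-control PM (log2 ratio -0.12), and 36.5 and 40.7 TPM in LDAH-KO and KO-control PM (log2 ratio -0.15). *Irak2*, a family member of the sustained response, averaged 52.0 and 53.4 TPM in LDAH-Tg and Tg-control PM (log2 ratio -0.04), and 52.7 and 59.0 TPM in LDAH-KO and KO-control PM (log2 ratio -0.16). *Irak3* encodes IRAK-M, which restrains the others, and averaged 11.1 and 10.4 TPM in LDAH-Tg and Tg-control PM (log2 ratio 0.09), and 13.8 and 16.2 TPM in LDAH-KO and KO-control PM (log2 ratio -0.22). The ubiquitin ligase gene *Traf6* averaged 8.47 and 9.15 TPM in LDAH-Tg and Tg-control PM (log2 ratio -0.10), and 13.0 and 15.1 TPM in LDAH-KO and KO-control PM (log2 ratio -0.21).

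The catalytic subunits of IKK held some of the highest ratios of the pathway in LDAH-Tg PM. *Chuk*, which encodes IKKα (chromosome 19, 44073335 to 44107480, minus strand), averaged 43.6 TPM in LDAH-Tg PM against 35.0 TPM in Tg-control PM (log2 ratio 0.31), and 34.0 TPM in LDAH-KO PM and 37.7 TPM in KO-control PM (log2 ratio -0.15). *Ikbkb*, which encodes IKKβ, averaged 71.1 TPM in LDAH-Tg PM against 61.7 TPM in Tg-control PM (log2 ratio 0.20), and 66.0 TPM in LDAH-KO PM and 64.4 TPM in KO-control PM (log2 ratio 0.03). The scaffold gene *Ikbkg* (NEMO) was not on the same side in LDAH-Tg PM: it averaged 22.4 TPM there and 23.2 TPM in Tg-control PM (log2 ratio -0.05), and 56.9 TPM in LDAH-KO PM and 66.2 TPM in KO-control PM (log2 ratio -0.22). All of these ratios lay within the 5th to 95th percentile of all genes.

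The NF-kB subunits themselves were within 0.10 on the log2 scale of their controls in LDAH-Tg PM, and 4 of 5 were lower in LDAH-KO PM (median log2 ratio -0.14), near the 66.6% of all genes that were lower. After centring on length, 3 of 5 were lower, with *Rel* at -0.10. *Rela*, which encodes the p65 subunit of the classical dimer, averaged 32.4 TPM in LDAH-Tg PM against 31.3 TPM in Tg-control PM (log2 ratio 0.05), and 32.6 TPM in LDAH-KO PM and 35.9 TPM in KO-control PM (log2 ratio -0.14). Its partner *Nfkb1* averaged 33.0 and 35.4 TPM in LDAH-Tg and Tg-control PM (log2 ratio -0.10), and 31.6 and 34.2 TPM in LDAH-KO and KO-control PM (log2 ratio -0.12). *Rel*, whose product c-Rel acts in cytokine genes such as those of the IL-12 family, averaged 5.70 and 5.95 TPM in LDAH-Tg and Tg-control PM (log2 ratio -0.06), and 7.04 and 8.94 TPM in LDAH-KO and KO-control PM (log2 ratio -0.32). For the alternative pathway, *Nfkb2* averaged 18.2 and 17.0 TPM in LDAH-Tg and Tg-control PM (log2 ratio 0.10), and 10.96 and 12.96 TPM in LDAH-KO and KO-control PM (log2 ratio -0.23), and *Relb* averaged 10.5 and 10.1 TPM in LDAH-Tg and Tg-control PM (log2 ratio 0.05), and 8.21 and 7.97 TPM in LDAH-KO and KO-control PM (log2 ratio 0.04).

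The inhibitors, several of which are transcribed in response to NF-kB, were split in LDAH-Tg PM (3 higher and 3 lower, median log2 ratio 0.03), and 5 of 6 were lower in LDAH-KO PM (median -0.11), where 66.6% of all genes were lower. *Nfkbib* and *Nfkbie* lay above 0 there under both other scalings, and after centring on length 2 of 6 were lower. *Nfkbia*, the gene of IκBα and a textbook target of NF-kB with the match printed above, averaged 47.4 TPM in LDAH-Tg PM against 44.6 TPM in Tg-control PM (log2 ratio 0.09), and 35.2 TPM in LDAH-KO PM and 33.3 TPM in KO-control PM (log2 ratio 0.08). *Tnfaip3* encodes A20, an enzyme that edits ubiquitin chains, and averaged 23.1 TPM in LDAH-Tg PM against 23.7 TPM in Tg-control PM (log2 ratio -0.04), and 39.7 TPM in LDAH-KO PM and 44.4 TPM in KO-control PM (log2 ratio -0.16). Thus both inhibitors with an NF-kB match close to a RefSeq start were within 0.2 log2 units of their controls in both genotypes. *Nfkbiz*, which encodes the nuclear IκBζ, a partner of NF-kB at some cytokine genes, had the highest ratio of all 36 pathway genes in LDAH-Tg PM at a low level, with 3.54 TPM there and 2.74 TPM in Tg-control PM (log2 ratio 0.32), and averaged 1.22 TPM in LDAH-KO PM and 1.51 TPM in KO-control PM (log2 ratio -0.22). *Nfkbib*, the gene of IκBβ, was the steadiest of the pathway, at 65.4 and 66.1 TPM in LDAH-Tg and Tg-control PM and 62.73 and 62.74 TPM in LDAH-KO and KO-control PM. *Nfkbie* (IκBε) averaged 4.94 and 4.67 TPM in LDAH-Tg and Tg-control PM (log2 ratio 0.07), and 4.17 and 4.36 TPM in LDAH-KO and KO-control PM (log2 ratio -0.06). *Tnip1*, which encodes a partner of A20, averaged 48.8 and 51.7 TPM in LDAH-Tg and Tg-control PM (log2 ratio -0.08), and 60.2 and 68.4 TPM in LDAH-KO and KO-control PM (log2 ratio -0.18).

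Across the pathway, 16 genes were higher and 20 lower by any size in LDAH-Tg PM, with a median log2 ratio of -0.04, where 50.5% of all genes were higher and 49.5% lower and the median of all genes was 0.00. In LDAH-KO PM, 7 were higher and 30 lower (81.1% lower), with a median of -0.16, where 33.4% of all genes were higher and 66.6% lower, with a median of -0.08. Under median-ratio scaling and quantile normalization, 28 and 27 of the 37 were lower, where the median log2 ratio of all genes was 0 and 0.003. The 7 genes on the higher side in LDAH-KO PM were *Tlr2*, *Cd14*, *Ly96*, *Myd88*, *Ikbkb*, *Relb* and *Nfkbia*. Of the 36 genes measured in both comparisons, which share no samples, 12 (33.3%) were higher in LDAH-Tg PM and lower in LDAH-KO PM, as were 32.3% of all genes. A further 17 (47.2%) were lower in both genotypes, against 33.9% of all genes, 4 were higher in both (16.7% of all genes) and 3 were lower in LDAH-Tg PM and higher in LDAH-KO PM (17.1% of all genes).

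The ratios of LDAH-KO PM moved with transcript length, over all genes and within the pathway alike. Spearman's rho between the ratio and the longest annotated transcript was -0.54 over 11262 genes and -0.53 over the 37 pathway genes, which share the same libraries. In LDAH-Tg PM it was -0.03 over 11372 genes and -0.07 over 36 pathway genes. In LDAH-KO PM, the median log2 ratio of all genes was 0.08 in the shortest of 5 length classes (up to 1669 bases) and -0.22 in the longest (5002 bases or more). The pathway's transcripts had a median of 3502 bases, against 3196 bases over all genes compared, and the short ones, *Ly96* (666 bases), *Nfkbia* (1578 bases) and *Cd14* (1641 bases), were among the 7 on the higher side. After the median of genes of like length was taken off each ratio, 24 of 37 were lower and 13 higher in LDAH-KO PM, with a median of -0.07. The median of all genes was then 0. *Tlr9*, *Tlr8* and *Tlr3* were still at -0.46, -0.30 and -0.30, while *Rel* (7466 bases) was at -0.10. *Traf6*, *Map3k7*, *Ikbkg*, *Nfkb1* and *Tnfaip3* lay above 0 and *Cd14* below it. RNA quality per sample was not at hand, and its part in the relation with length was not tested.

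**Figure D3:**
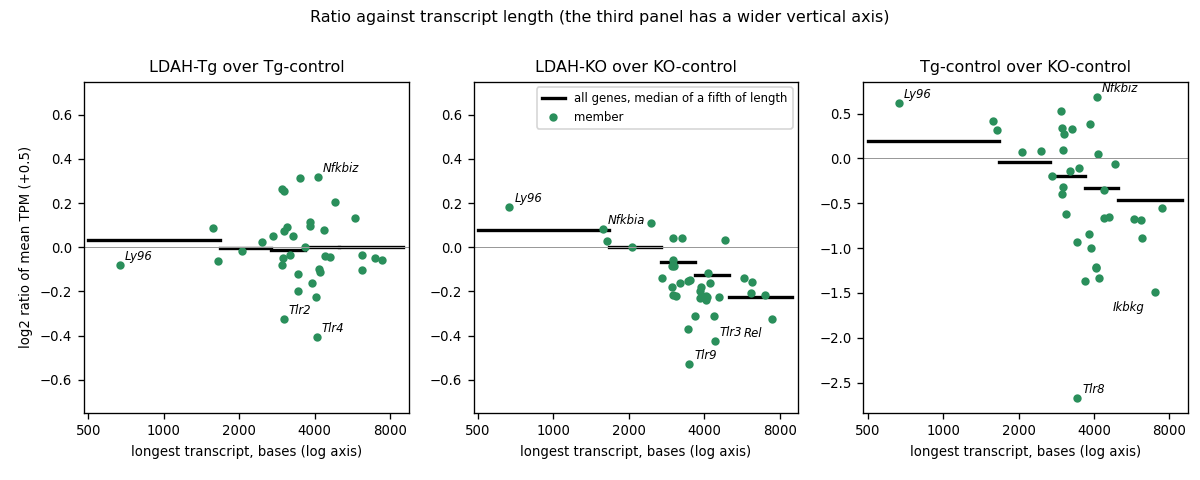
Log2 ratio of mean TPM (0.5 added) against the longest annotated transcript in bases (log axis) for the pathway genes (points) in the comparisons of LDAH-Tg over Tg-control, LDAH-KO over KO-control and Tg-control over KO-control PM; black bars are medians of all genes in each of 5 length classes, with the outer bars shortened to fit the axis. In LDAH-KO PM the bars step down from 0.08 to -0.22 and the points follow, while in LDAH-Tg PM the bars stay near 0.

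More pathway genes passed the factor of 1.5 between the control groups of the mouse lines than between either genotype and its controls. Tg-control PM over KO-control PM shares its samples with both comparisons above, and line, genotype label and any batch cannot be told apart in it. Of 36 pathway genes, 17 (47.2%) passed a factor of 1.5, 2 higher and 15 lower in Tg-control PM, where 38.6% of all 11404 genes did (12.1% higher and 26.5% lower). The median log2 ratio was -0.34 for the pathway and -0.17 for all genes, and 13 of 36 pathway genes were higher and 23 lower by any size (39.3% and 60.7% of all genes). With the columns scaled so that the median of all genes was 0, a shift of 0.17, 4 pathway genes were higher and 10 lower, and 18.5% of all genes were higher and 18.3% lower, so the excess of lower over higher calls was gone over all genes and smaller within the pathway. Quantile normalization gave 5 higher and 10 lower, where 18.2% of all genes were higher and 18.5% lower. These ratios also moved with transcript length (Spearman's rho -0.55 over the 36 pathway genes and -0.32 over 11377 genes), and after centring on length 11 pathway genes passed the factor, 3 higher and 8 lower, with a median of -0.056. The median of all genes after centring was 0. The centred counts are given without the share of all genes and are not read against it.

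*Tlr8* (X chromosome, 167242696 to 167264329, minus strand) had the widest gap, with a log2 ratio of -2.67 between 11.6 TPM in Tg-control PM and 76.4 TPM in KO-control PM, where the 5th percentile of all genes was -1.27. All 4 measured endosomal receptors were lower in Tg-control PM by the factor of 1.5: besides *Tlr8*, *Tlr13* (log2 ratio -1.22), *Tlr7* (-1.0) and *Tlr3* (-0.66). At the surface, *Tlr6* (log2 ratio -1.37) and *Tlr4* (-1.21) were lower too, while *Tlr1* (0.28) and *Tlr2* (-0.32) did not pass the factor. *Tlr8* was the second most abundant receptor in LDAH-KO and KO-control PM and the sixth in LDAH-Tg and Tg-control PM, where *Tlr1* followed *Tlr13*. Farther down, *Ikbkg* (log2 ratio -1.49), *Ticam2* (-1.33), *Irak4* (-0.94), *Tnfaip3* (-0.89), *Irak1* (-0.84), *Traf6* (-0.69), *Map3k7* (-0.68), *Tirap* (-0.66) and *Irak3* (-0.61) made up the remaining lower genes. *Nfkbiz* (0.69) and *Ly96* (0.61) were the higher ones. Of the lower genes, *Tlr3*, *Traf6*, *Map3k7*, *Tirap* and *Irak3* were under the factor with either scaling and after centring on length, and *Irak1* and *Tnfaip3* after centring alone. *Ly96* was under it after centring, where *Tab1* and *Nfkb2* joined *Nfkbiz* as higher. *Myd88* (0.08), *Nfkbib* (0.08) and *Nfkb1* (0.05) were nearly level between the lines before scaling. *Tlr7*, *Tlr8*, *Tlr13*, *Irak1* and *Ikbkg* lie on the X chromosome, and *Ikbkg* shares its locus in the table with *G6pdx*. In this comparison the macrophage marker *Adgre1* averaged 33.1 TPM in Tg-control PM and 146.1 TPM in KO-control PM, and *Itgam* 144.2 TPM in Tg-control PM and 273.5 TPM in KO-control PM. Of the 6 macrophage markers 4 were lower in Tg-control PM (median log2 ratio -0.06), where 60.7% of all genes were lower. The sum of the 6 markers, carried by *Cd68* at 4959 TPM in Tg-control PM and 3321 TPM in KO-control PM, was higher in Tg-control PM. The part of these levels in the differences was not tested.

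The wider pathway was followed in 88 more genes, sorted into partners and chaperones of the receptors, other kinases, ligases and adaptors, other brakes, and cytokine, chemokine and further target genes of NF-kB. In LDAH-Tg PM, 79 of them could be compared: 0 were higher and 1 was lower by a factor of 1.5, where 1.26% of all genes were higher and 0.685% lower (medians, 0.02 for these genes and 0.00 for all genes). That gene was *Cd36*, the scavenger receptor that takes up oxLDL and works with TLR4 and TLR6, with 2112.5 TPM in LDAH-Tg PM against 3276.3 TPM in Tg-control PM (log2 ratio -0.63). It is listed at 0 in LDAH-KO and KO-control PM, where no ratio was formed. The partners and chaperones of the receptors had the lowest median of the lists in LDAH-Tg PM, -0.26, with 7 of 11 genes lower by any size (49.5% of all genes). Among them, *Lgmn*, a protease that processes endosomal TLRs, averaged 1418 TPM in LDAH-Tg PM against 1882 TPM in Tg-control PM (log2 ratio -0.41), and *Hsp90b1*, the chaperone that folds most TLRs, averaged 422.0 and 547.2 TPM in LDAH-Tg and Tg-control PM (log2 ratio -0.37). *Cd180*, a TLR relative, averaged 154.7 TPM in LDAH-Tg PM against 185.7 TPM in Tg-control PM (log2 ratio -0.26). The list was not lower as a whole: 4 of its genes were on the higher side, with a highest log2 ratio of 0.08.

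Of the other kinases, ligases and adaptors, 18 of 27 were higher by any size in LDAH-Tg PM (median log2 ratio 0.07), where 50.5% of all genes were higher. *Traf1*, an adaptor gene induced by NF-kB, averaged 8.14 TPM in LDAH-Tg PM against 5.72 TPM in Tg-control PM (log2 ratio 0.47), and *Ikbke*, a kinase gene related to IKK, averaged 92.4 and 71.2 TPM in LDAH-Tg and Tg-control PM (log2 ratio 0.37). *Pik3ap1*, which encodes the adaptor BCAP, lay on the other side at 24.9 TPM in LDAH-Tg PM against 35.5 TPM in Tg-control PM (log2 ratio -0.50). The other brakes were split in LDAH-Tg PM (12 higher and 10 lower, median 0.05). The nuclear IκB gene *Nfkbid* averaged 41.9 TPM in LDAH-Tg PM against 31.3 TPM in Tg-control PM (log2 ratio 0.41). *Zc3h12a*, which encodes an RNase that destroys cytokine mRNA, averaged 26.8 and 20.7 TPM in LDAH-Tg and Tg-control PM (log2 ratio 0.37), and the inhibitory receptor gene *Cd200r1* averaged 74.5 and 99.3 TPM in LDAH-Tg and Tg-control PM (log2 ratio -0.41). The NF-kB target genes were split as well, with 10 on the higher and 9 on the lower side in LDAH-Tg PM (median 0.01), and none of them passed the factor of 1.5. *Tnf* averaged 17.1 TPM in LDAH-Tg PM against 15.1 TPM in Tg-control PM (log2 ratio 0.18).

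In LDAH-KO PM, 77 of the 88 genes could be compared, of which 0 were higher and 3 lower by a factor of 1.5, where 0.39% of all genes were higher and 1.83% lower (medians, -0.06 for these genes and -0.08 for all genes). All 3 were NF-kB target genes at low levels. Under median-ratio scaling 0 were higher and 2 lower, and under quantile normalization 1 was higher (*Cd40*, named after its value was seen) and 2 lower, *Vcam1* being under the factor in both. *Cxcl1*, a neutrophil attractant, averaged 6.02 TPM in LDAH-KO PM and 11.35 TPM in KO-control PM (log2 ratio -0.86). *Ccl5*, an attractant of T cells, averaged 0.928 TPM in LDAH-KO PM and 1.94 TPM in KO-control PM (log2 ratio -0.77), and the adhesion molecule gene *Vcam1* averaged 0.909 and 1.66 TPM in LDAH-KO and KO-control PM (log2 ratio -0.62). Both were under 1 TPM in LDAH-KO PM and met the minimum level only through KO-control PM, which favours a lower ratio. *Ccl2*, the monocyte attractant, averaged 25.1 TPM in LDAH-KO PM and 37.0 TPM in KO-control PM (log2 ratio -0.55), whereas *Tnf* averaged 9.12 and 8.60 TPM in LDAH-KO and KO-control PM (log2 ratio 0.08) and *Gadd45b*, a stress response gene, averaged 130.0 and 114.9 TPM in LDAH-KO and KO-control PM (log2 ratio 0.18). The median of the target list was -0.14, with 7 of 18 genes on the higher side (33.4% of all genes). The fibroblast markers were lower in the same comparison, with *Dcn* at 11.6 TPM in LDAH-KO PM and 19.8 TPM in KO-control PM and *Col3a1* at 1.61 and 4.75 TPM in LDAH-KO and KO-control PM, and their part in the ratios of these target genes was not tested. Of the brakes, *Socs1* averaged 2.47 TPM in LDAH-KO PM and 1.83 TPM in KO-control PM (log2 ratio 0.35) and *Commd1*, which promotes the breakdown of RelA, averaged 332.4 and 267.1 TPM in LDAH-KO and KO-control PM (log2 ratio 0.31). Between the control groups, 18 of 79 of these genes were higher and 18 lower in Tg-control PM (12.1% and 26.5% of all genes), and 25 were higher and 15 lower under median-ratio scaling (18.5% and 18.3% of all genes). In LDAH-KO PM, *Tab3*, the relative of *Tab2*, averaged 5.24 TPM, against 6.98 TPM in KO-control PM (log2 ratio -0.38).

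**Figure D4:**
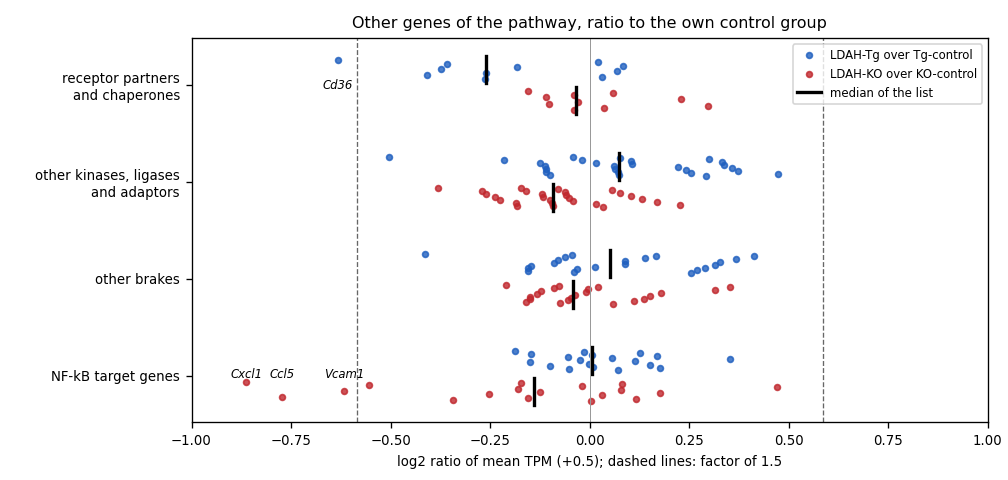
Log2 ratio of mean TPM (0.5 added) of the other pathway genes, 1 point per gene, in LDAH-Tg PM over Tg-control PM and LDAH-KO PM over KO-control PM; black bars are list medians and dashed lines a factor of 1.5. *Cd36* in LDAH-Tg PM and *Cxcl1*, *Ccl5* and *Vcam1* in LDAH-KO PM are the only points beyond the dashed lines as deposited.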

How the data were processed

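The 16 PM samples (4 groups of 4) gave poly(A) libraries made with a stranded kit. Per the methods and the submitters' processing notes, the authors trimmed reads with Trimmomatic and aligned them to GRCm38 (mm10) with STAR 2.4.2a; the notes also name bcl2fastq 2.17.1.14, HTSeq, DESeq2 and Cuffdiff 2.2.1. The tool that made the TPM values and the annotation release are not given in the sources used here. The deposited TPM values are means of a group's 4 samples that the authors took, so the spread between samples, the depth and any pairing cannot be seen, and the fits planned for single samples were replaced by ratios of means. Each column summed to 1000000 over 48432 genes once 1 line that holds the total and names no gene was left out. TPM are shares of a whole, so a difference in abundant transcripts shifts all others. Ratios were computed with Python 3.11.15, pandas 2.3.3 and numpy 2.4.6 after adding 0.5 TPM, for genes at a mean of at least 1 TPM and not listed at 0 in a group of the comparison, and counted past a factor of 1.5. The script was tested on simulated data. Transcript lengths, positions and overlaps come from GENCODE M21 (GRCm38), which gave a length for 99.2% of genes. A symbol on more than 1 entry stands for the entry of highest mean. The 40 genes, all of which are named in the text, and the 4 further pathway lists were chosen with earlier results of these data known. Of each further list, the genes past the factor and up to 4 with the largest ratios in a comparison were eligible to be named; marker genes are named as a check of the cells. Other pseudocounts, filters, scalings and factors were tried, and the corrections for transcript length and for overlapping genes were added after the data were seen.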

Additional observations from a re-analysis of the deposited data

How the results depend on the processing

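Other pseudocounts, filters, scalings, factors, a limit to protein-coding genes and, chosen after seeing the data, centring on genes of like transcript length and leaving out the 5 genes overlapped on the same strand were tried. In LDAH-Tg PM the count past the factor was 0 under all of these except a log2 ratio past 0.32, where it was 2, and only *Tlr6* changed its side of 0. In LDAH-KO PM the count was 1 (*Tlr9*) with 0.1 TPM or none added, where 2.4% and 2.5% of all genes were lower. It was 4 at a log2 ratio past 0.32 and 0 elsewhere. In this comparison 9 of 37 genes changed side under some setting. These were *Tab1*, *Nfkbib* and *Nfkbie* under another scaling and the others under the centring on length. Under median-ratio scaling and quantile normalization the median of LDAH-KO PM was -0.08 and -0.09. Between the control groups, 17 genes passed the factor as deposited, 7 at a factor of 2 and 11 (3 higher, 8 lower) after centring on length, and the median was -0.16 under median-ratio scaling, -0.15 under quantile normalization and -0.056 after centring. The split was 4 higher and 10 lower under median-ratio scaling (18.5% and 18.3% of all genes). It was 5 higher and 10 lower under quantile normalization (18.2% and 18.5% of all genes), and 4 of 36 genes changed side. The counts at a factor of 2 and after centring are given without the share of all genes. The cause of these shifts was not tested. Leaving out single replicates was not run, since only group means were at hand. No paired analysis was possible because the columns are group means and carry no replicate. Without samples, no ratio can be set against the spread between mice, and genes below 1 TPM were not compared.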
